A study of Mus musculus with 73 samples.

Results

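The comparison described here sets p150DN embryos against EGFP control embryos at the 8-cell stage. Its members are 6 RNA-seq libraries, 3 of each group, out of the 73 samples of the series, taken by their labels, and 11730 of the 25220 gene symbols of the expression table, those with at least 1 FPKM in 3 or more of the 6 libraries. FPKM relates the fragments counted for a gene to its length and to the library total. The series maps the histone variant H3.3 through early mouse development, and its RNA-seq also holds 2 libraries of EGFP blastocysts, used below only for values set beside these 6. Both 8-cell groups are embryos of a hybrid C57BL/6 / C3H background kept in KSOM, a culture medium for preimplantation embryos, and they differ in the label EGFP or p150DN. For 2-cell embryos of the series the labels describe messenger RNA for EGFP or EGFP-p150DN injected into the zygote, while for these libraries the way of delivery, the number of embryos per library and whether replicates were separate cultures are not stated. The p-values therefore measure the spread between libraries, which may be technical.

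Chromatin assembly factor 1 (CAF-1) is a complex of p150, p60 and a histone-binding WD repeat protein. It is recruited to the replication fork by the sliding clamp PCNA and places H3-H4 on newly made DNA, so that chromatin is rebuilt in each S phase. The cleavage divisions of the mouse embryo follow one another with little growth, and embryos without p150 stop developing before implantation. The 8-cell stage is also when blastomeres compact, become polarised and start to differ as outer and inner cells. A dominant-negative protein is a form that interferes with the complex of the normal one, and EGFP, the enhanced green fluorescent protein, serves as a neutral control.

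Chaf1a, the gene of p150 (chromosome 17, 56040416 to 56068026, build mm10), stood at 27.7, 30.2 and 28.8 FPKM in EGFP replicates 1, 2 and 3 and at 165, 254 and 238 FPKM in p150DN replicates 1, 2 and 3. Every library labelled p150DN thus lay above every EGFP library, and the difference was 2.86 ± 0.17 on the log2 scale (± SE; adjusted p by limma = 5.5e-05). Fold changes here and below are differences in log2(FPKM + 1), p150DN minus EGFP, which understate the change of weakly expressed genes. The files give 1 value per gene, so transcripts of an introduced p150 sequence and of the embryo's own gene cannot be told apart. Chaf1b, the gene of p60, was at 18.7, 22.3 and 20.03 FPKM in EGFP and 23.2, 22.4 and 22.2 FPKM in p150DN libraries. Its difference did not pass the test (0.15 ± 0.13, limma adjusted p = 0.41).

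Between 16578221 and 20823283 fragments were counted per library. All 10 markers of the preimplantation embryo were at 1 FPKM or more in each of the 6 libraries, and the defining markers of cumulus cells, sperm, fibroblasts and blood summed to 0.228 to 3.92 FPKM per list and library. Fibroblast markers summed to 0.412, 0.266 and 0.610 FPKM in EGFP and to 1.21, 3.92 and 3.59 FPKM in p150DN libraries. Genes above 0 FPKM numbered 17310, 17477 and 18402 in EGFP and 18412, 20465 and 21282 in p150DN libraries, a mean difference of 2323 genes (exact permutation test, two-sided p = 0.1, the smallest that 3 against 3 can give). Replicates 2 and 3 of p150DN stood apart in this count. Of 1132 olfactory receptor genes, a family of the nose, 50, 61 and 105 were above 0 in EGFP and 101, 260 and 393 in p150DN libraries, although none reached the filter. The part that this wider detection has in the results was not tested, and counts without p150DN replicates 2 and 3 stand beside the counts over all genes and over each gene list below.

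A total of 4023 genes (34.3%) differed between the groups (limma, Benjamini-Hochberg adjusted p below 0.05). Of the tested genes, 2887 (24.6%) were higher and 1136 (9.68%) lower in p150DN embryos. Changes of at least 2-fold were found for 1260 higher and 283 lower genes, and of at least 4-fold for 188 and 12. The 3 p150DN libraries lay above the 3 EGFP libraries in 4026 genes (34.3%) and below them in 1816 genes (15.5%), with or without a call. The excess of rises depended on the scaling. After median-of-ratios scaling over the tested genes 2023 were higher and 1994 lower, and after quantile normalization 1779 and 1833, since the median gene stood 0.19 higher in p150DN embryos on the log2 scale and both methods bring that median close to 0. The direction of a small change below is therefore relative to the common total of fragments. Without p150DN replicates 2 and 3, an alternative added after the data were seen, 1569 genes were higher and 914 lower. Leaving out EGFP replicate 1 gave 1875 and 663, and leaving out p150DN replicate 3 gave 1922 and 771.

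The changed genes held a sizeable part of the embryo's transcripts. Genes called higher made up 11.5%, 11.3% and 11.8% of the summed FPKM in EGFP libraries and 20.3%, 19.3% and 21.8% in p150DN libraries. Genes called lower made up 23.0%, 23.4% and 21.7% in EGFP and 13%, 13.9% and 12.1% in p150DN libraries. Because the genes were called on these libraries, the shares describe the size of the change and test nothing. In the 2 EGFP blastocyst libraries the same 2887 genes made up 25.7% and 26%, and the same 1136 genes 9.36% and 9.40%. Blastocysts have more cells than 8-cell embryos, and fewer cells of a kind and less RNA per cell cannot be told apart in these libraries.

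**Figure D1:**
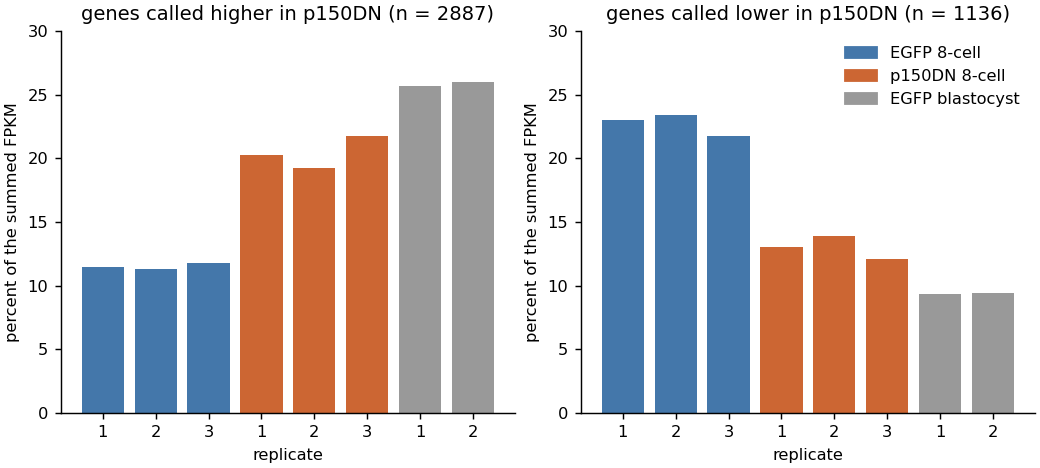
Share of the summed FPKM of each library (y axis, percent) held by the 2887 genes called higher (left) and the 1136 genes called lower (right) in p150DN embryos, 1 bar per library. The p150DN bars stand at 19.3% to 21.8% against 11.3% to 11.8% in EGFP 8-cell libraries on the left, and at 12.1% to 13.9% against 21.7% to 23.4% on the right.

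Direction went with the level of a gene. By the mean over all 6 libraries, 15.3% of the 751 genes of at least 100 FPKM rose and 23.6% fell, and of 1917 genes between 30 and 100 FPKM 17.4% rose and 21.8% fell. Of 2863 genes between 10 and 30 FPKM 23.3% and 10.1% did, and of the 1876 genes under 2 FPKM 27.2% and 1.81%. By the level in EGFP embryos the contrast was wider, with 9.45% higher and 30.1% lower among 762 genes of at least 100 FPKM and 62.6% higher and 0 lower among 1020 genes below 1 FPKM. The latter classes are set by values that enter the difference, and the genes below 1 FPKM passed the filter mostly through their p150DN values, so part of that contrast follows from the choice of genes.

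**Figure D2:**
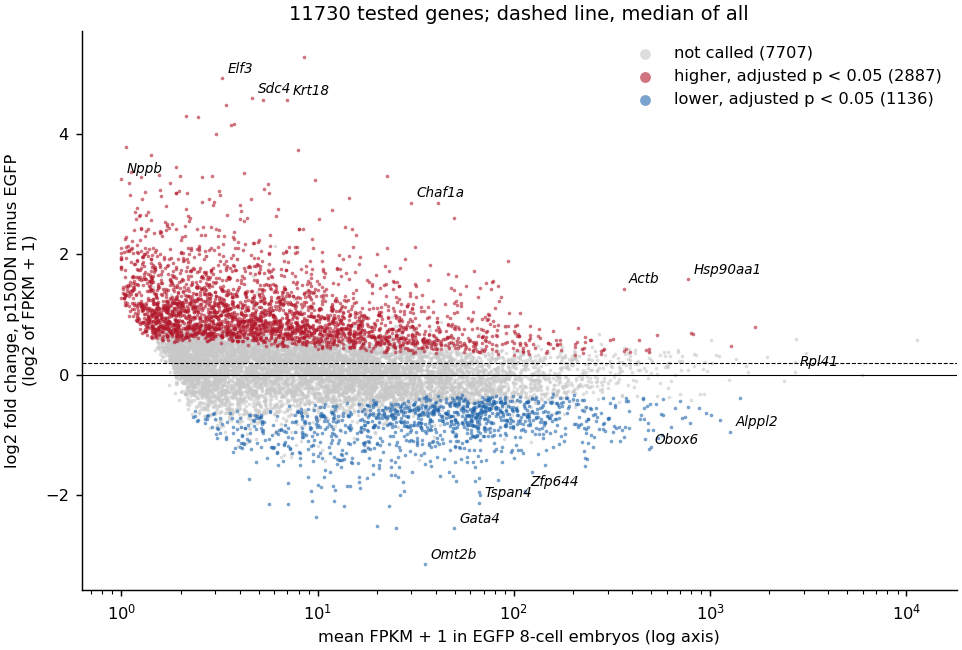
Log2 fold change of each of the 11730 tested genes (y axis) against its mean FPKM + 1 in EGFP 8-cell embryos (x axis, log scale), red where called higher, blue where called lower. Rises crowd at low and falls at high EGFP levels, in part because the EGFP level enters both axes, and the dashed line marks the median of all genes, 0.19.

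The 20 largest rises among genes of at least 5 FPKM on average were led by Elf3 (chromosome 1, 135253574 to 135258472), an epithelial transcription factor of the ETS family. It was at 1.46, 0.692 and 4.58 FPKM in EGFP and 87.2, 91.1 and 79.0 FPKM in p150DN libraries, which is 4.92 ± 0.37 on the log2 scale (adjusted p by limma = 0.00017). The groups were far apart, and EGFP replicate 3 was the highest of the controls. Sdc4, a heparan sulfate proteoglycan of the cell surface, was nearly as changed, from 3.22, 3.76 and 3.91 to 118, 103 and 110 FPKM. A group of these genes serves the epithelial cortex and cytoskeleton. Krt18 and Krt8, the paired keratins of simple epithelia, went from 6.79, 6.78 and 4.36 to 117, 147 and 241 FPKM and from 8.97, 6.98 and 10.1 to 60.0, 98.6 and 120 FPKM. Ezr, which encodes ezrin and ties actin to the apical membrane, went from 2.27, 1.08 and 1.36 to 22.7, 17.4 and 33.5 FPKM. Anxa2, a calcium-dependent membrane binder, and S100a11, of the S100 family of calcium-binding partners of annexins, rose from 1.61, 1.08 and 1.66 to 43.5, 31.7 and 71.0 FPKM and from 9.34, 5.10 and 6.26 to 102, 96.7 and 107 FPKM. The naming rule asked that the groups not overlap, so their separation in these 7 genes was set by the choice. The highest value in Krt18, Krt8, Ezr, Anxa2 and S100a11 was that of p150DN replicate 3. The log2 fold changes of the 7 genes ran from 3.23 to 4.92, with limma adjusted p between 1.3e-06 and 0.00018.

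**Figure D3:**
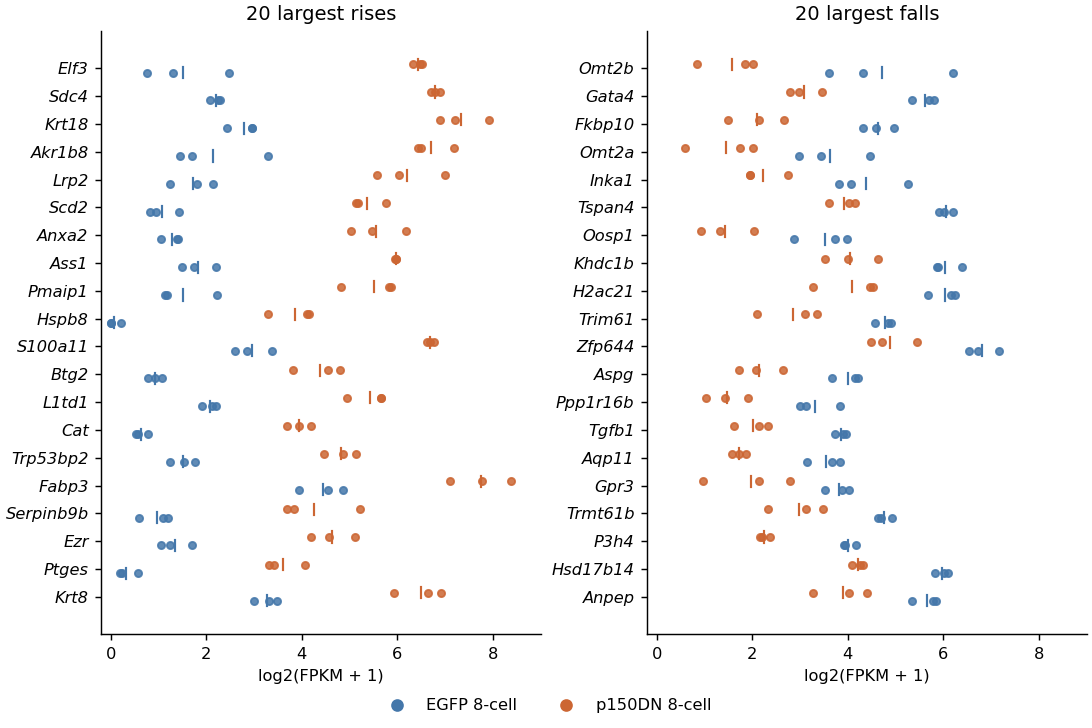
Log2(FPKM + 1) (x axis) of the 20 largest rises (left) and 20 largest falls (right) in each library, 1 point per library, with a short bar at the group mean. By the naming rule the 2 groups do not overlap in these genes, and Elf3 (log2 fold change 4.92) and Omt2b (-3.14) head the panels.

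A further set of the largest rises acts in metabolism. Lrp2, the endocytic receptor megalin, rose from 1.35, 2.47 and 3.39 to 64.5, 46.5 and 127 FPKM, and Fabp3, a fatty acid carrier, from 27.9, 22.5 and 14.3 to 217, 136 and 330 FPKM. Scd2, a desaturase that makes monounsaturated fatty acids, was at 1.69, 0.762 and 0.920 FPKM in EGFP and 34.2, 53.5 and 34.9 FPKM in p150DN libraries. Ass1, of arginine synthesis, was among the most even of the rises, at 1.83, 2.36 and 3.61 against 61.6, 61.5 and 61.1 FPKM. Akr1b8, an aldo-keto reductase, went from 1.73, 2.23 and 8.79 to 89.1, 84.98 and 144 FPKM, Cat, the catalase of peroxisomes, from 0.433, 0.717 and 0.487 to 17.2, 14.3 and 11.9 FPKM, and Ptges, which makes prostaglandin E2, from 0.171, 0.136 and 0.482 to 8.99, 9.64 and 15.8 FPKM. EGFP replicate 3 was above the other controls in Akr1b8, Lrp2, Ass1 and Ptges. It stayed below every p150DN library, as the naming rule requires.

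Cell death and arrest genes were also among the 20. Pmaip1, the gene of Noxa, a BH3-only protein that promotes apoptosis, was at 1.25, 3.67 and 1.19 FPKM in EGFP and 27.3, 57.7 and 55.6 FPKM in p150DN libraries (4.00 ± 0.36). Btg2, an antiproliferative gene induced by p53, rose from 1.09, 0.722 and 0.906 to 26.7, 22.2 and 12.97 FPKM, with its lowest p150DN value in replicate 3. Trp53bp2, whose product ASPP2 binds p53, rose from 2.37, 1.90 and 1.37 to 27.9, 21.0 and 34.1 FPKM. The small heat shock protein gene Hspb8 was at 0.159, 0 and 0 FPKM in EGFP and 8.76, 16.3 and 16.8 FPKM in p150DN libraries. L1td1, an RNA-binding protein gene of pluripotent cells, rose from 3.33, 3.63 and 2.74 to 49.2, 29.8 and 49.5 FPKM, and the granzyme inhibitor gene Serpinb9b from 1.30, 0.505 and 1.14 to 13.4, 11.9 and 36.3 FPKM. Serpinb9b lies in a cluster of close copies, and how the authors assigned reads that fit several genes is not stated. No call among the 20 rises was lost in any alternative run, and the same held for the 20 falls below.

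Promoters were read from the first RefSeq window listed for each gene, 250 bases before to 50 after the start (GRCm38.p6, the assembly of mm10). Of the tested genes 9100 had a window, and genes with several windows enter with the first only. The element TGANTCA, called the AP-1 element here, is its own reverse complement apart from the middle base. The usual binding sequence of AP-1 has C or G in the middle, and matches with A or T were also counted. The element was in 4.65% of the 9100 windows, in 4.87% of those of higher genes and in 13.5% of the 148 windows of genes at least 4-fold higher. Lower genes had it in 4.40%, and genes at least 2-fold lower in 4.67% of 214. The TATA box TATAAA, on either strand, was in 14.9% of the 4-fold higher group against 6.97% of all. The ETS element CCGGAAG was in 6.08% against 19.8%, and the E2F element TTTNNCGC in 6.08% against 9.19%. Windows with 5 or fewer CpG made up 20.9% of the 4-fold higher group, 17.3% of the genes at least 2-fold lower and 9.76% of all. A match is a description and not a bound site. Over the first windows of all RefSeq genes with a promoter window, 27025 in number, 43.6% had 5 or fewer CpG. The AP-1 and TATA elements were in 7.93% and 14.2% of them. The part of CpG content in the shares of the changed genes was not tested.

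**Figure D4:**
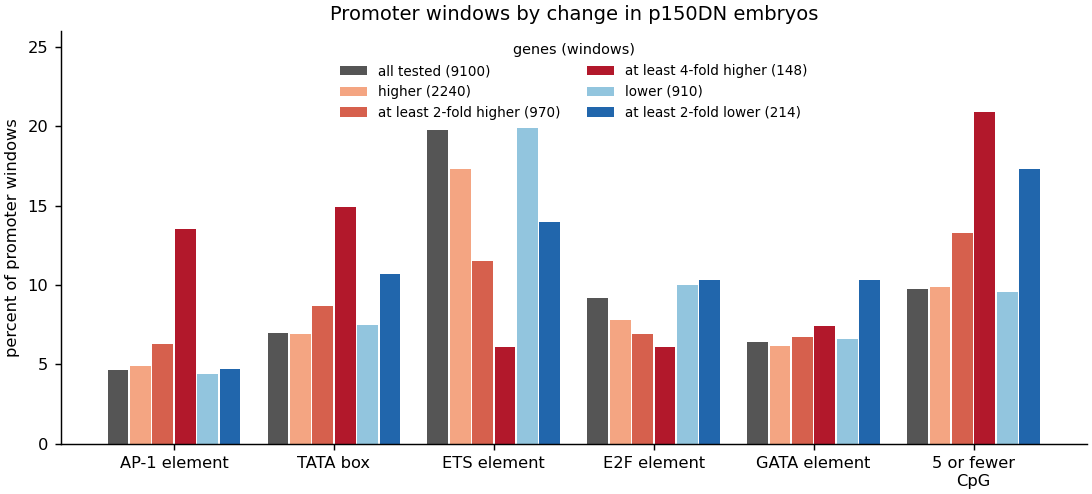
Percent of promoter windows (y axis) that hold each element or have 5 or fewer CpG, for all tested genes and for groups of genes by their change in p150DN embryos; numbers of windows stand in the key. The group at least 4-fold higher stands at 13.5% for the AP-1 element against 4.65% of all genes, and at 6.08% against 19.8% for the ETS element.

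Sequences of named genes were read only where RefSeq lists a single window. Of the 20 largest rises 18 had a single window, and 3 of these held an AP-1 element, all before the start. Their surroundings are shown, 5′ to 3′ on the strand of the gene with the element in capitals, to let the sites be compared (sequences from RefSeq, GRCm38.p6).
Anxa2, chr9:69453558-69453624, plus strand: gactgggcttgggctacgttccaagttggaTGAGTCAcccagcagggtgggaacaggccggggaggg
S100a11, chr3:93520428-93520494, plus strand: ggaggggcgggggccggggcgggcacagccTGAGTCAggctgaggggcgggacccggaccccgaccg
Ezr, chr17:6782781-6782842, minus strand: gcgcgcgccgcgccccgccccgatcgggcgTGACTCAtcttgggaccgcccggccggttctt
The element ended 88, 31 and 25 bases before the start in Anxa2, S100a11 and Ezr. The surroundings differ in composition, and the whole windows held 13, 15 and 38 CpG. S100a11 had 2 such elements before its start, of which the nearer is shown. The log2 fold changes of the 3 genes were 4.28, 3.74 and 3.29, and among the 20 largest falls 1 of 12 genes with a single window, Gpr3, held the element.

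The 20 largest falls were smaller in fold than the rises and mostly began from higher control levels. The contrast in control levels follows in part from the naming rule, which asked for a mean of at least 5 FPKM over the 6 libraries. Omt2b and Omt2a, genes of the oocyte that are close copies of each other, fell from 19.01, 72.5 and 11.2 to 0.801, 2.57 and 3.04 FPKM and from 9.84, 21.2 and 6.91 to 0.516, 3.03 and 2.35 FPKM. EGFP replicate 2 had the most of both, and their errors were wide (-3.14 ± 0.59 and -2.18 ± 0.44). Oosp1, an oocyte-secreted protein gene, was at 14.9, 12.2 and 6.34 against 0.900, 3.104 and 1.52 FPKM, Khdc1b, of another multicopy family expressed in the oocyte, at 58.1, 82.6 and 57.4 against 10.4, 23.6 and 15.1 FPKM, and Gpr3, the receptor that keeps oocytes in meiotic arrest, at 13.7, 10.5 and 15.3 against 0.962, 5.96 and 3.43 FPKM. The summed level of 8 oocyte and polar body markers, Oosp1 among them, was 85.6, 89.99 and 72.7 FPKM in EGFP and 34.7, 79.9 and 61.9 FPKM in p150DN libraries, with p150DN replicate 1 the lowest, and its part in these falls was not tested.

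Gata4, a transcription factor of endoderm and heart (chromosome 14, 63198914 to 63271712), fell from 50.7, 54.9 and 39.6 to 6.86, 10.04 and 5.89 FPKM (-2.54 ± 0.21; limma, adjusted p = 0.00018). The signalling gene Tgfb1, for transforming growth factor beta 1, fell from 13.9, 14.7 and 12.2 to 2.05, 3.38 and 4.02 FPKM, Inka1, for an inhibitor of the kinase PAK4, from 13.2, 37.6 and 15.7 to 2.87, 2.89 and 5.69 FPKM, and Ppp1r16b, for a regulatory subunit of protein phosphatase 1, from 7.75, 13.3 and 7.001 to 1.70, 2.78 and 1.05 FPKM. Among membrane proteins, the tetraspanin gene Tspan4 was at 59.4, 63.9 and 72.6 against 15.2, 11.1 and 16.8 FPKM, the water channel gene Aqp11 at 13.3, 11.8 and 7.82 against 1.97, 2.63 and 2.28 FPKM, and Anpep, for aminopeptidase N, at 56.3, 53.9 and 39.6 against 8.60, 15.3 and 20.1 FPKM. Fkbp10 and P3h4, for proteins that act on collagen in the endoplasmic reticulum, fell from 23.2, 30.4 and 18.99 to 1.83, 5.30 and 3.38 FPKM and from 14.04, 17.0 and 14.3 to 3.47, 3.59 and 4.14 FPKM. The zinc finger gene Zfp644 was at 105, 143 and 91.8 against 21.5, 42.6 and 25.3 FPKM and the steroid dehydrogenase gene Hsd17b14 at 63.7, 67.4 and 55.5 against 18.9, 18.1 and 16.0 FPKM. Trmt61b, named for a methyltransferase of mitochondrial RNA, is listed as a long noncoding RNA in the RefSeq genes matched here. It completed the set with Aspg, for an asparaginase, Trim61 and H2ac21, a histone H2A gene. Their log2 fold changes, in that order, were -1.77, -1.87, -1.93 and -1.94.

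Abundant transcripts moved by smaller folds. The largest gain in FPKM was that of Hsp90aa1, an inducible cytosolic heat shock protein 90, from 861, 640 and 809 to 3074, 1733 and 2294 FPKM (1.59 ± 0.21). Actb, for beta actin, rose from 362, 332 and 389 to 953, 814 and 1186 FPKM (1.43 ± 0.15). The noncoding nuclear RNA Malat1 rose from 115, 84.0 and 77.6 to 381, 324 and 315 FPKM, and Khdc3, of the subcortical maternal complex, from 39.0, 28.5 and 52.4 to 388, 217 and 277 FPKM. Fabp3 and Chaf1a, given above, were also among the 12 largest gains, and the other 6 had smaller fold changes. Hspa8, the constitutive chaperone Hsc70, had a log2 fold change of 0.79, the elongation factor gene Eef1a1 one of 0.67, the autophagy receptor gene Calcoco2 0.69, the respiratory chain gene Cox6c 0.65, and the ribosomal protein genes Rps3a1 and Rpl8 0.58 and 0.48. The calls of all 6 were lost under at least 1 of the 2 median-of-ratios scalings, with limma adjusted p of up to 0.47. Rpl8 also lost its call without EGFP replicate 1 or 2, and Rps3a1 without EGFP replicate 2 or 3 or p150DN replicate 1.

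Alppl2, a germ cell and embryo alkaline phosphatase, showed the largest loss, from 1300, 1294 and 1189 to 729, 747 and 519 FPKM (-0.94 ± 0.15). The linker histone gene H1f1 fell from 816, 709 and 836 to 512, 466 and 380 FPKM (-0.80 ± 0.14). Histone genes H2bc18 and H1f2 had log2 fold changes of -0.75 and -0.72, and both calls were lost when EGFP replicate 1 or 3 was left out, or p150DN replicate 3. Impdh2, of guanine nucleotide synthesis, was at 943, 936 and 972 against 693, 605 and 540 FPKM, a call lost without p150DN replicates 2 and 3 (limma adjusted p = 0.058). Gcsh, of the glycine cleavage system, was at 705, 763 and 749 against 516, 460 and 400 FPKM, and Odc1, the first enzyme of polyamine synthesis, at 875, 839 and 918 against 606, 572 and 624 FPKM. Wdr43, of the small ribosomal subunit processome, fell from 582.4, 529 and 586 to 340, 297 and 221 FPKM, and Dnajc21, of ribosome maturation, from 644, 644 and 603 to 402, 314 and 328 FPKM. The homeobox gene Obox6 (-1.23) and Trim43b (-1.19) belong to families of close copies. The metallothionein gene Mt1 (-0.38) was lost as a call without any 1 of 5 libraries, all but p150DN replicate 2.

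Genes near 0 in a group were sought among those of at least 300 bases with a named symbol. None had at least 2 FPKM in every EGFP library and at most 0.5 FPKM in every p150DN library. The reverse held for 48 genes. More genes were detected in p150DN libraries, as given above, and the part of this in the 48 was not tested. The 10 largest of the 48 included Nppb, the natriuretic peptide gene, listed at 0 in every EGFP library and at 6.98, 17.6 and 4.87 FPKM in p150DN libraries. Plau, for the urokinase plasminogen activator, was at 0.0205, 0.0633 and 0.199 against 3.98, 14.6 and 11.4 FPKM, and Plod2, a collagen lysyl hydroxylase gene, at 0.414, 0.0133 and 0.376 against 12.2, 11.0 and 4.36 FPKM. Gpx2, a glutathione peroxidase gene, was at 0.180, 0 and 0.145 against 4.32, 11.7 and 9.05 FPKM. Epha2, an ephrin receptor gene, rose from 0.195, 0.264 and 0.132 to 5.58, 7.48 and 8.82 FPKM, and Fhl2, for a LIM domain cofactor, from 0.344, 0.0590 and 0.123 to 4.42, 8.17 and 7.91 FPKM. The lens filament gene Bfsp2 (2.70), Srarp (2.66), Hspb8 and Ptges made up the rest. Plau and Gpx2 were lowest in p150DN replicate 1, and Nppb and Plod2 in replicate 3. The rule that chose these genes itself sets every p150DN value above every EGFP value.

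Among genes of at least 300 bases with a named symbol, the 95% interval of the log2 fold change lay within 0.5 of 0 for 1317. These were 11.2% of all 11730 tested genes, a total that includes genes outside that rule. The 8 most abundant of them were Rpl41, Dppa3, Npm1, Rplp2, Fbxo15, Rplp0, Eef2 and Ybx1. Dppa3, the maternal factor Stella, was at 2486, 2411 and 2218 FPKM in EGFP and 2361, 2108 and 2161 FPKM in p150DN libraries, and Npm1, for nucleophosmin, at 1620, 1428 and 1506 against 1969, 1368 and 1762 FPKM. Their intervals were -0.36 to 0.16 and -0.19 to 0.49. The groups overlapped in both.

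Gene lists of cell structures and processes were counted against the 24.6% and 9.68% of all tested genes that were higher and lower. The lists describe these libraries and were not tested as sets. As with the level classes above, members weak in EGFP libraries could pass the filter through their p150DN values, which favours rises. A pair of counts in parentheses gives higher and lower members, in that order, under another setting. Where leaving out 1 library moved a count by more than 1.5 times, that library and the new count are given; most often it was EGFP replicate 1 or p150DN replicate 3, as in the count over all genes.

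**Figure D5:**
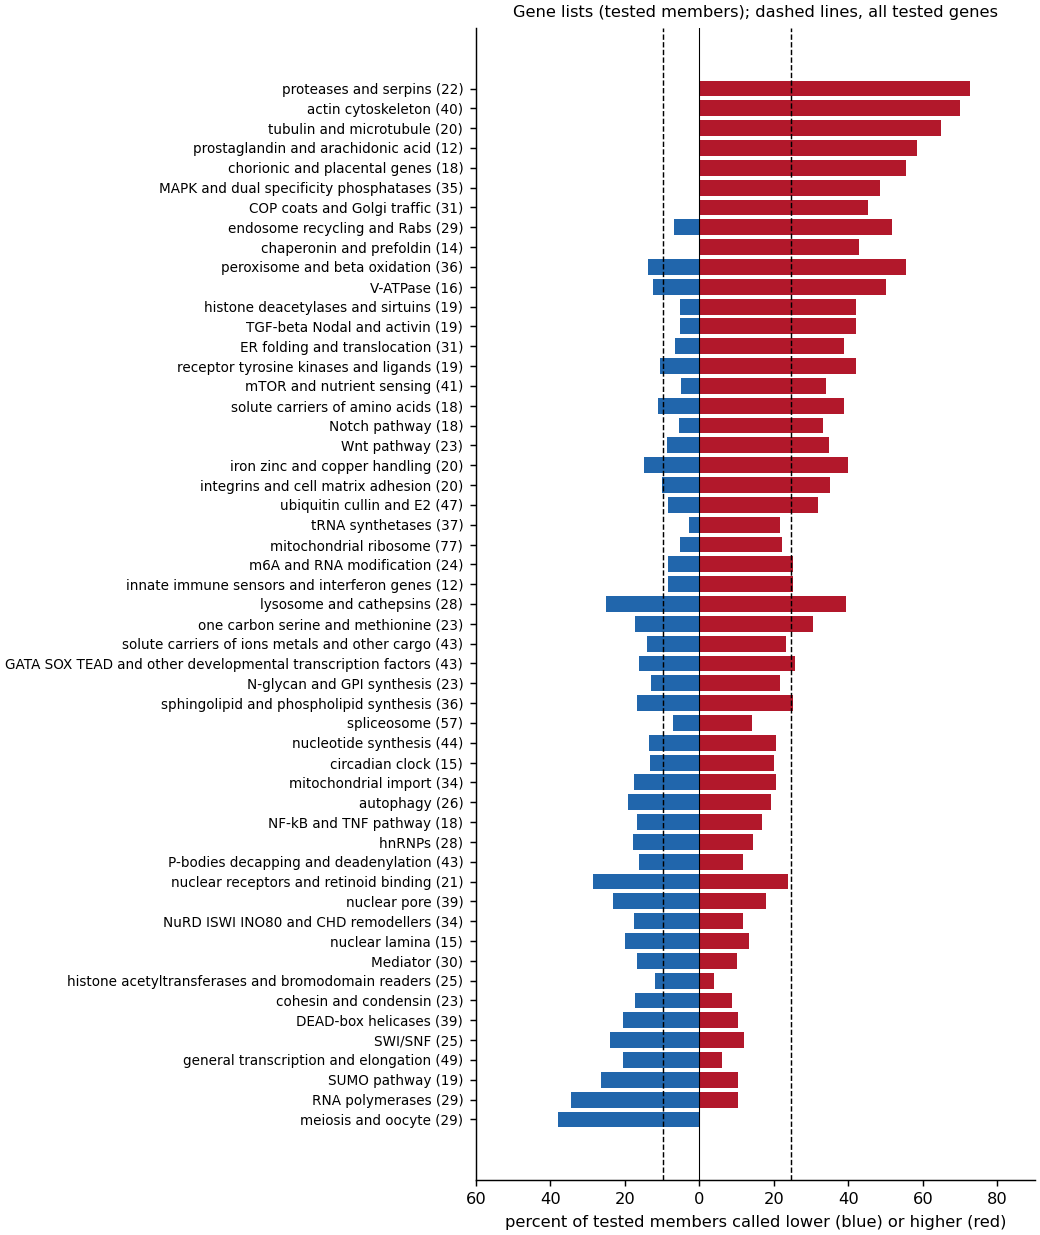
Percent of tested members called higher (red, right) or lower (blue, left) for gene lists with at least 12 tested members, given in parentheses. Dashed lines mark all tested genes, 24.6% higher and 9.68% lower; proteases and serpins, actin and tubulin genes lie at the top and genes of meiosis and the oocyte at the bottom.

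Actin genes rose broadly: 28 of 40 tested members (70.0%) were higher and 0 lower (23 and 1 after median-of-ratios scaling, 23 and 0 without p150DN replicates 2 and 3), with a median log2 fold change of 0.84 against 0.19 over all genes. Their summed level was 2072, 2002 and 2213 FPKM in EGFP and 3748, 3447 and 4257 FPKM in p150DN libraries. The count was 25 to 29 when any 1 library was left out. Gsn, for the filament-severing protein gelsolin, rose from 0.555, 0.897 and 0.341 to 9.51, 9.06 and 16.7 FPKM (2.96 ± 0.26), Pls3, for the bundling protein plastin 3, from 1.41, 2.16 and 2.20 to 13.8, 19.98 and 25.97 FPKM, and Tpm1, a tropomyosin gene, from 7.86, 8.46 and 9.23 to 29.8, 43.7 and 49.0 FPKM. Capzb, which caps filament ends, rose by 1.97. Of 20 tubulin and microtubule genes 13 were higher and 0 lower (9 and 1 after median-of-ratios scaling, 7 and 0 without p150DN replicates 2 and 3), with a median of 0.69, and 8 were higher without EGFP replicate 1 or without p150DN replicate 3. Tuba4a, an alpha tubulin gene, was at 8.95, 6.52 and 9.61 against 50.1, 39.4 and 41.0 FPKM, and Stmn1, for the tubulin-binding protein stathmin, at 7.79, 8.72 and 7.17 against 27.0, 23.2 and 25.4 FPKM. The chaperonin and prefoldin that fold actin and tubulin had 6 of 14 genes higher and 0 lower (1 and 1 after median-of-ratios scaling, 5 and 0 without p150DN replicates 2 and 3), among them Pfdn1 (0.93), and 3 higher without EGFP replicate 1 or 2 and 2 without p150DN replicate 3.

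Integrin and matrix adhesion genes were divided, with 7 of 20 higher and 2 lower (6 and 2 after median-of-ratios scaling, 4 and 2 without p150DN replicates 2 and 3). The talin genes Tln2 and Tln1, which link integrins to actin, rose by 1.25 and 1.01, and Dag1, for dystroglycan, by 1.17. The falls were Itgav (-0.79) and Itgb5 (-0.49), which together encode the vitronectin receptor alpha v beta 5. Neither was called without EGFP replicate 1, and Itgav also not without EGFP replicate 2 or p150DN replicate 3.

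Of 22 extracellular proteases and their inhibitors 16 (72.7%) were higher and 0 lower (14 and 1 after median-of-ratios scaling, 12 and 1 without p150DN replicates 2 and 3), with a median of 1.47, and 13 to 16 when any 1 library was left out. Serpine2, an inhibitor of thrombin and urokinase, rose from 2.85, 2.00 and 2.52 to 19.4, 16.8 and 26.4 FPKM (2.65 ± 0.21), and Serpinb6c, of a family of close copies, from 0.723, 0.484 and 1.67 to 16.1, 9.36 and 20.8 FPKM. With Plau and Serpine2, a protease and its inhibitor rose together. Of 18 genes of later trophoblast and placenta 10 were higher and 0 lower (9 and 0 after median-of-ratios scaling, 6 and 1 without p150DN replicates 2 and 3), with a median of 1.202, and 1 was lower without p150DN replicate 2. Fabp5, a fatty acid carrier, went from 4.18, 1.87 and 3.53 to 29.5, 11.0 and 36.6 FPKM and Crip2, for a LIM domain protein, from 20.01, 15.0 and 28.2 to 85.1, 59.3 and 81.5 FPKM. Of 12 genes that release or convert arachidonic acid 7 were higher and 0 lower (5 and 1 after median-of-ratios scaling, 5 and 0 without p150DN replicates 2 and 3), with a median of 0.83. They included Ephx1, an epoxide hydrolase gene, from 0.414, 0.881 and 0.773 to 7.65, 12.97 and 12.2 FPKM, Ptgr1, which breaks down prostaglandins, from 2.33, 3.48 and 3.24 to 17.0, 21.3 and 32.7 FPKM, and the phospholipase gene Pla2g6 (1.78). Protease list genes at 1 FPKM or more numbered 15, 14 and 17 in EGFP and 22, 23 and 24 in p150DN libraries. Placental genes numbered 14, 16 and 15 against 18, 24 and 22, and arachidonic acid genes 8, 10 and 10 against 11, 12 and 13. Some tested members of all 3 lists thus needed their p150DN values to pass the filter. Part of these shares follows from that choice of genes.

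In membrane traffic, of 31 coat and Golgi genes 14 were higher and 0 lower (9 and 1 after median-of-ratios scaling, 8 and 0 without p150DN replicates 2 and 3), with a median of 0.41, and 9 were higher without EGFP replicate 1. Arf4 and Arf5, GTPases that recruit coats, rose by 1.17 and 1.21. Of 29 Rab and retromer genes 15 were higher and 2 lower (10 and 2 after median-of-ratios scaling, 12 and 2 without p150DN replicates 2 and 3), with a median of 0.55. Vps29, a retromer subunit gene, rose from 0.659, 0.504 and 1.11 to 7.10, 6.10 and 6.07 FPKM and Snx2, of the sorting nexins, from 56.7, 36.2 and 48.1 to 141, 102 and 144 FPKM, while Rab20 fell from 84.9, 73.6 and 91.8 to 44.3, 43.5 and 48.1 FPKM. The other lower member, Rab34 (-0.68), lost its call without EGFP replicate 1 or 2 or p150DN replicate 1 or 3. In the endoplasmic reticulum 12 of 31 folding and translocation genes were higher and 2 lower (10 and 4 after median-of-ratios scaling, 10 and 3 without p150DN replicates 2 and 3), with Hsp90b1, the chaperone Grp94, at 31.1, 30.01 and 30.2 against 106, 79.8 and 82.2 FPKM and Calr, for calreticulin, at 45.6, 57.8 and 46.4 against 156, 107 and 97.2 FPKM. The 2 lower members were the stress sensor gene Ern1 (-0.91) and Dnajb9 (-0.90), both lost without EGFP replicate 1 or 2, Dnajb9 also without p150DN replicate 1 or 3. The GPI anchor genes Pigf and Pgap2 moved apart, by 1.19 and -1.69, in a list of 23 glycan and GPI genes with 5 higher and 3 lower (2 and 5 after median-of-ratios scaling, 1 and 1 without p150DN replicates 2 and 3). Its shares, 21.7% higher and 13% lower, were not far from those of all tested genes. Higher members of that list numbered 1 without EGFP replicate 1, which left 1 lower, 3 without EGFP replicate 3 or p150DN replicate 2, and 2 without p150DN replicate 3.

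Of 28 tested lysosomal genes 11 were higher and 7 lower (6 and 7 after median-of-ratios scaling, 4 and 8 without p150DN replicates 2 and 3), and 4 cathepsin genes were among the lower. Ctsa, of cathepsin A, fell from 228, 244 and 237 to 122, 99.0 and 103 FPKM (-1.13 ± 0.12), Ctsl from 353, 395 and 292 to 107, 218 and 179 FPKM, and Ctsc and Ctsb fell by 1.10 and 1.04 on the log2 scale. The hydrolase genes Tpp1 and Hexa rose, from 0.0135, 0.111 and 0.102 to 5.79, 1.60 and 4.96 FPKM and from 6.81, 8.72 and 8.16 to 20.5, 19.7 and 28.1 FPKM. The count of lower members was 7 whichever single library was left out, while that of higher members was 7 without EGFP replicate 1, 6 without EGFP replicate 3 and 5 without p150DN replicate 3. The proton pump that acidifies these compartments had 8 of 16 genes higher and 2 lower (6 and 2 after median-of-ratios scaling, 7 and 1 without p150DN replicates 2 and 3), 5 higher without EGFP replicate 1 or p150DN replicate 3. Atp6v1f rose from 7.87, 9.42 and 11.5 to 32.9, 29.0 and 42.6 FPKM, while the accessory subunit gene Atp6ap1 fell from 32.5, 41.9 and 36.7 to 18.0, 26.5 and 20.4 FPKM. Atp6v1d (-0.52), the other lower member, lost its call without EGFP replicate 1 or 2 or p150DN replicate 1 or 3. Autophagy genes were 5 higher and 5 lower of 26 (4 and 7 after median-of-ratios scaling, 3 and 4 without p150DN replicates 2 and 3), 3 higher without EGFP replicate 2, and 3 of each without p150DN replicate 3. The cargo receptor gene Sqstm1, for p62, rose from 17.3, 22.5 and 24.9 to 76.7, 84.7 and 133 FPKM (2.11 ± 0.22), and Atg3 and Map1lc3a, of the LC3 lipidation step, fell by 1.25 and 0.76 on the log2 scale.

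In metabolism, 20 of 36 peroxisome and fatty acid oxidation genes were higher and 5 lower (14 and 5 after median-of-ratios scaling, 14 and 1 without p150DN replicates 2 and 3), with a median of 0.64, and 13 higher without EGFP replicate 1 or p150DN replicate 3. Lower members numbered 2 without any 1 EGFP library or p150DN replicate 3 and 3 without p150DN replicate 2. Mitochondrial enzymes led after Cat. Hadh rose from 12.9, 10.5 and 14.3 to 54.4, 35.3 and 64.0 FPKM, Acaa2 from 3.75, 2.21 and 4.62 to 20.4, 8.998 and 12.3 FPKM, and Cpt2, of fatty acid entry, from 0.429, 0.526 and 0.308 to 3.38, 4.24 and 2.62 FPKM. Pex19, which brings membrane proteins to peroxisomes, fell from 27.9, 37.5 and 27.8 to 14.7, 12.0 and 16.7 FPKM. Iron storage rose: the ferritin genes Fth1 and Ftl1 went from 80.4, 69.2 and 81.8 to 208, 246 and 234 FPKM and from 83.2, 64.7 and 81.7 to 204, 197 and 275 FPKM, in a list of 20 metal genes with 8 higher and 3 lower (7 and 4 after median-of-ratios scaling, 5 and 2 without p150DN replicates 2 and 3). The latter 3 were Mt1, Mt2 (-0.43) and Mtf1 (-0.86), the metallothioneins and their metal-responsive activator, and the metallothionein calls were lost without EGFP replicate 1 or 3 or p150DN replicate 1 or 3. Of 23 genes of folate, serine and methionine metabolism 7 were higher and 4 lower (4 and 5 after median-of-ratios scaling, 5 and 3 without p150DN replicates 2 and 3), 4 higher without EGFP replicate 1 or 3 or p150DN replicate 3. Cbs, which diverts homocysteine to cysteine, rose from 1.32, 1.07 and 0.9504 to 11.3, 11.1 and 9.71 FPKM (2.47 ± 0.18) and Ahcy from 2.08, 1.60 and 3.13 to 7.15, 6.96 and 8.88 FPKM, while Mat2a, which makes the methyl donor S-adenosylmethionine, fell from 258, 242 and 237 to 148, 184 and 164 FPKM. In membrane lipid synthesis 9 of 36 were higher and 6 lower (3 and 11 after median-of-ratios scaling, 4 and 5 without p150DN replicates 2 and 3). The share higher, 25%, was near the 24.6% of all tested genes, and the share lower was 16.7% against 9.68%. Higher ones numbered 3 without EGFP replicate 1 or p150DN replicate 3, 4 without EGFP replicate 3 and 5 without EGFP replicate 2 or p150DN replicate 1. Lpin1 rose (2.10) and Ptdss2, for a phosphatidylserine synthase, fell from 234, 234 and 214.9 to 72.4, 92.3 and 73.9 FPKM. Nucleotide synthesis had 9 of 44 higher and 6 lower (6 and 10 after median-of-ratios scaling, 6 and 3 without p150DN replicates 2 and 3). These shares of nucleotide genes, 20.5% and 13.6%, were not far from those of all tested genes. Lower ones numbered 2 without EGFP replicate 1 and 3 without EGFP replicate 3 or p150DN replicate 3.

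Among signalling lists, of 35 MAP kinase pathway genes 17 were higher and 0 lower (13 and 1 after median-of-ratios scaling, 8 and 0 without p150DN replicates 2 and 3), with a median of 0.47, 10 higher without EGFP replicate 1 and 9 without p150DN replicate 3. The phosphatase gene Dusp1 rose from 0.717, 1.88 and 2.16 to 6.27, 7.06 and 6.96 FPKM, and the kinase gene Map3k20 by 1.30. Of 19 receptor tyrosine kinase and ligand genes 8 were higher and 2 lower (7 and 2 after median-of-ratios scaling, 3 and 2 without p150DN replicates 2 and 3), 5 higher without p150DN replicate 3. Efna4, for ephrin A4, went from 0.181, 0.341 and 0.324 to 1.72, 2.05 and 4.54 FPKM beside the receptor gene Epha2, and Igf2r, which clears insulin-like growth factor 2, fell from 221, 242 and 228 to 118, 124 and 111 FPKM. The other fall, Kit (-0.78), was not called without EGFP replicate 2 or 3 or p150DN replicate 1 or 3. In the Wnt list 8 of 23 were higher and 2 lower (6 and 3 after median-of-ratios scaling, 4 and 1 without p150DN replicates 2 and 3), 5 higher without p150DN replicate 3 and 1 lower without EGFP replicate 1 or 2 or p150DN replicate 1 or 3, and the ligand genes Wnt7b and Wnt3a rose from 0.305, 0.235 and 0.187 to 3.58, 4.61 and 6.68 FPKM and from 0.0698, 0.216 and 0.0376 to 1.27, 1.86 and 2.78 FPKM. Notch1 rose from 0.845, 1.15 and 1.22 to 5.89, 8.88 and 7.68 FPKM, in a list of 18 with 6 higher and 1 lower (4 and 1 after median-of-ratios scaling, 2 and 1 without p150DN replicates 2 and 3). The lower one, Adam17 (-0.75), was not called without EGFP replicate 1 or 2 or p150DN replicate 3. Of 19 TGF-beta, Nodal and activin genes 8 were higher and 1, Tgfb1, lower (5 and 2 after median-of-ratios scaling, 2 and 2 without p150DN replicates 2 and 3). The secreted activin inhibitor gene Fstl3 rose from 11.6, 9.95 and 10.9 to 23.1, 25.9 and 27.7 FPKM. That count of 8 was 4 without EGFP replicate 1 or p150DN replicate 3 and 5 without EGFP replicate 2, and 2 were lower without p150DN replicate 1. In the list of 41 mTOR and nutrient sensing genes, 14 were higher and 2 lower (6 and 2 after median-of-ratios scaling, 7 and 1 without p150DN replicates 2 and 3), 1 lower without EGFP replicate 2 or p150DN replicate 3. Higher ones numbered 6 without EGFP replicate 1, 9 without EGFP replicate 2, 8 without EGFP replicate 3 and 7 without p150DN replicate 3, with Eif4ebp1, a translation repressor, at 37.3, 60.9 and 50.9 against 181, 129 and 155 FPKM.

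Among 21 nuclear receptor and retinoid genes 5 were higher and 6 lower (4 and 8 after median-of-ratios scaling, 2 and 4 without p150DN replicates 2 and 3). Nr4a1, an early response receptor, rose from 0.989, 1.40 and 1.07 to 8.07, 6.69 and 6.70 FPKM, while Nr2c2 fell from 66.4, 62.4 and 59.2 to 16.1, 26.5 and 22.0 FPKM and Nr1h3, for the oxysterol receptor LXR alpha, from 15.5, 13.2 and 13.3 to 3.88, 6.35 and 4.27 FPKM. The share higher of this list, 23.8%, was near that of all tested genes, and the share lower was 28.6% against 9.68%. Lower members numbered 3 without EGFP replicate 1 or p150DN replicate 3 and 2 without EGFP replicate 3, and higher ones 2 without EGFP replicate 1 and 3 without p150DN replicate 3. In a list of 43, mostly other developmental transcription factors, 11 were higher, a share of 25.6% near the 24.6% of all genes, and 7 lower (10 and 9 after median-of-ratios scaling, 7 and 8 without p150DN replicates 2 and 3), 4 lower without p150DN replicate 3. Grhl3, for an epithelial transcription factor, rose from 0.413, 0.266 and 0.278 to 2.90, 3.79 and 3.29 FPKM, and Sox15 and Spic, both transcription factor genes, fell from 303, 237 and 270 to 160, 166 and 111 FPKM and from 281, 363 and 316 to 147, 216 and 141 FPKM. Of 12 interferon and nucleic acid sensor genes tested 3 were higher and 1 lower (3 and 2 after median-of-ratios scaling, 4 and 1 without p150DN replicates 2 and 3), 2 lower without p150DN replicate 2. The shares of this list, 25% and 8.33%, were near those of all tested genes. Stat2, a mediator of interferon signals, was the lower one, at 22.3, 20.1 and 16.1 against 4.82, 7.71 and 6.48 FPKM.

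Lists of the nuclear transcription machinery had fewer rises and more falls than all tested genes. Direction also went with level, and of all genes between 30 and 100 FPKM 17.4% were higher and 21.8% lower. The part of level in the shares of these lists was not tested. Of 29 RNA polymerase subunit genes 3 were higher and 10 lower (3 and 15 after median-of-ratios scaling, 2 and 6 without p150DN replicates 2 and 3), with a median of -0.29, and 7 to 9 lower when any 1 library was left out. The subunits did not move as one: the polymerase III gene Polr3a fell from 42.9, 42.7 and 42.7 to 21.3, 26.04 and 24.3 FPKM and Polr1e, of polymerase I, from 24.3, 22.2 and 21.8 to 12.2, 14.3 and 14.4 FPKM, while Polr2a, the largest subunit of polymerase II, rose from 39.4, 42.8 and 39.5 to 66.5, 65.9 and 68.1 FPKM. General initiation and elongation factors had 3 of 49 higher and 10 lower (1 and 17 after median-of-ratios scaling, 1 and 5 without p150DN replicates 2 and 3). Higher ones numbered 1 when any 1 library but p150DN replicate 2 was left out and 5 without that one. There were 6 lower without EGFP replicate 1 and 5 without EGFP replicate 2 or p150DN replicate 3. The elongation factor genes Ell3 and Ell2 led the falls, from 29.8, 22.0 and 19.9 to 7.68, 10.4 and 6.34 FPKM and from 108, 122 and 101 to 41.6, 46.8 and 43.6 FPKM. Of 30 Mediator genes 3 were higher and 5 lower (2 and 13 after median-of-ratios scaling, 3 and 6 without p150DN replicates 2 and 3). Med15 was among the higher (0.98) and the lower included genes such as Med29 (-0.91) and Med31 (-0.89). SWI/SNF remodeller genes had 3 of 25 higher and 6 lower (1 and 10 after median-of-ratios scaling, 1 and 4 without p150DN replicates 2 and 3), 3 lower without p150DN replicate 3 and 1 higher without EGFP replicate 1 or p150DN replicate 3. Smarca4, its ATPase BRG1, fell from 157, 166 and 169 to 94.4, 89.3 and 91.7 FPKM (-0.83 ± 0.10). Of 34 other remodeller genes 4 were higher and 6 lower (2 and 11 after median-of-ratios scaling, 2 and 7 without p150DN replicates 2 and 3), 1 higher without EGFP replicate 1 or p150DN replicate 3 and 2 without EGFP replicate 2 or 3. The NuRD genes Chd4 and Gatad2b fell by 0.70 and 0.99 on the log2 scale.

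Histone deacetylase and corepressor genes were mostly in the other direction, with 8 of 19 higher and 1 lower (7 and 3 after median-of-ratios scaling, 4 and 2 without p150DN replicates 2 and 3) and a median of 0.48. They had 4 higher without EGFP replicate 1 or p150DN replicate 3, 0 lower without p150DN replicate 3 and 3 lower without p150DN replicate 2. Hdac3 rose from 3.19, 2.42 and 4.18 to 12.7, 11.4 and 14.5 FPKM (1.72 ± 0.20). Of 25 histone acetyltransferase and bromodomain genes 1 was higher and 3 lower (1 and 10 after median-of-ratios scaling, 1 and 4 without p150DN replicates 2 and 3), 1 lower without EGFP replicate 1, 6 lower without p150DN replicate 2 and 2 higher without EGFP replicate 2. The riser was Hat1, from 64.3, 61.1 and 67.3 to 187, 152 and 141 FPKM, which acetylates newly made histone H4 before deposition, and the coactivator gene Ep300 fell from 109, 96.7 and 116 to 50.1, 80.1 and 62.7 FPKM. The nuclear envelope gene Lemd3 fell from 56.3, 62.6 and 51.0 to 18.0, 29.6 and 17.9 FPKM and its relative Lemd2 rose from 0.407, 0.171 and 0.637 to 2.31, 2.99 and 2.93 FPKM, in a list of 15 with 2 higher and 3 lower (1 and 8 after median-of-ratios scaling, 1 and 3 without p150DN replicates 2 and 3), 1 higher without any 1 EGFP library and 5 lower without p150DN replicate 2. Nuclear pore and transport genes had 7 of 39 higher and 9 lower (2 and 16 after median-of-ratios scaling, 4 and 5 without p150DN replicates 2 and 3). Higher ones numbered 3 without EGFP replicate 3 or p150DN replicate 3 and 4 without EGFP replicate 1 or 2 or p150DN replicate 1, and lower ones 5 without EGFP replicate 1 or 3 or p150DN replicate 3, with the basket gene Tpr at 275, 325 and 250 against 149, 182 and 150 FPKM and the importin gene Ipo5 at 490, 426 and 462 against 303, 259 and 270 FPKM.

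Spliceosome genes had 8 of 57 higher and 4 lower (0 and 9 after median-of-ratios scaling, 4 and 2 without p150DN replicates 2 and 3), with a median of 0.09, and without EGFP replicate 1 there was 1 of each. Higher ones numbered 4 without EGFP replicate 3, p150DN replicate 1 or p150DN replicate 3, and lower ones 1 without EGFP replicate 3 and 2 without p150DN replicate 3. Crnkl1 was the clearest change, from 366, 408 and 317 to 180, 172 and 179 FPKM (-1.02 ± 0.12). Of 39 RNA helicase genes 4 were higher and 8 lower (3 and 13 after median-of-ratios scaling, 2 and 5 without p150DN replicates 2 and 3), 2 higher without EGFP replicate 1 or 2 or p150DN replicate 3, and 4 and 5 lower without EGFP replicate 1 and without p150DN replicate 3. Dhx30 (-0.84) and Dhx8 (-0.68) were among the lower. In the mRNA decay list of 43, 5 were higher and 7 lower (1 and 9 after median-of-ratios scaling, 0 and 2 without p150DN replicates 2 and 3). Leaving out EGFP replicate 1 gave 0 and 2, p150DN replicate 3 2 and 2, EGFP replicate 2 3 higher, and EGFP replicate 3 3 lower. The exosome catalytic gene Exosc10 fell from 69.0, 73.6 and 72.8 to 40.5, 53.3 and 36.4 FPKM. Mitochondrial ribosome genes had 17 of 77 higher and 4 lower (6 and 7 after median-of-ratios scaling, 14 and 2 without p150DN replicates 2 and 3), with a median of 0.28, 10 higher without EGFP replicate 1 and 9 without EGFP replicate 2 or p150DN replicate 3, and 2 lower without EGFP replicate 1 or 3 or p150DN replicate 3. The share higher, 22.1%, was near the 24.6% of all tested genes, and the share lower was 5.19% against 9.68%. Mrps6 rose from 26.04, 16.7 and 32.2 to 66.8, 75.2 and 64.2 FPKM and Mrps25 fell from 31.3, 31.0 and 29.2 to 10.1, 13.2 and 11.8 FPKM.

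Of 29 tested genes of meiosis and the oocyte 0 were higher and 11 (37.9%) lower (0 and 16 after median-of-ratios scaling, 0 and 15 without p150DN replicates 2 and 3), with a median of -0.52. The count was 7 without EGFP replicate 2, and p150DN replicate 1 had the lowest oocyte marker sum, as given above. Btg4, an adaptor that clears maternal mRNA, fell from 23.4, 25.5 and 22.5 to 5.57, 9.57 and 5.90 FPKM (-1.66 ± 0.20), and Npm2, the oocyte nucleoplasmin, from 22.7, 26.3 and 25.1 to 6.35, 10.3 and 11.0 FPKM. Oog3 (-1.50) belongs to a family of close copies. The summed level of the list was 682, 728 and 631 FPKM in EGFP and 391, 475 and 406 FPKM in p150DN libraries, with no overlap between the groups.

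Chromosomes had shares close to those of all genes, with some differences. Chromosome 15, which carries Krt8 and Krt18, had 33.9% of its 448 tested genes higher and 9.15% lower, and a median of 0.34. Chromosome 13 had the lowest share among the autosomes, 18.3% of 469 higher, and the highest share lower, 13.2%. Of the 371 genes tested on the X chromosome, 21.8% were higher and 5.12% lower. That balance rested on the libraries used: without p150DN replicates 2 and 3 the counts on the X chromosome were 27 higher and 53 lower, against 81 and 19 with all libraries. Higher ones numbered 52 and 53 without EGFP replicate 1 or 2 and 46 without p150DN replicate 3, and lower ones 11, 9 and 12 without EGFP replicate 1, 2 or 3. The labels do not state the embryos' sex. By genomic span, the 1200 genes over 100000 bases had 27.3% higher and 5.58% lower, and the 411 genes under 300 bases, whose FPKM rest on few fragments, 11.9% and 5.6%.

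Libraries of a group were alike but less so in p150DN embryos. The median SD of log2(FPKM + 1) over genes was 0.18 in EGFP and 0.23 in p150DN embryos, and 60.7% of the tested genes had the larger SD in p150DN. Across genes, Pearson's r was 0.975 to 0.984 between EGFP libraries, 0.961 to 0.970 between p150DN libraries and 0.906 to 0.939 between the groups, where genes are not independent replicates. Single p150DN libraries shared the changes: 99.4% to 99.97% of the genes called higher lay above every EGFP library in each of them, which the call itself favours.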

How the data were processed

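RNA-seq libraries were made from total RNA of lysed embryos (SMART-seq, stranded), per the labels' protocols. The authors deposited FPKM values, per the file headers, in 1 table of 25220 gene symbols and 8 libraries. Columns of 8-cell embryos without a treatment name were taken as EGFP, the only other 8-cell RNA-seq group in the labels. Build mm10 and the tools HISAT2, featureCounts, Trim Galore, Bowtie2 and SAMtools are listed, without roles, in the submitters' processing notes. Neither the strand setting nor the handling of multiply mapped reads is stated, so overlapping, antisense and copied genes are uncertain. FPKM is set against the fragment total of each library, so total RNA per embryo cannot be seen. The summed FPKM was not fixed, at 396852, 381865 and 401470 in EGFP and 426297, 405453 and 415281 in p150DN libraries. Its part in the differences was not tested. The other 65 samples were not analysed here.

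Values were set on log2(FPKM + 1), genes reaching 1 FPKM in 3 or more of the 6 libraries were kept, and limma 3.58.1 (R 4.3.3; lmFit and eBayes with a trend) was run two-sided on the 6 libraries without covariates, with Benjamini-Hochberg adjustment over all 11730 genes. Count tests were not used, as the values are FPKM. Fragments were recovered from the values of short genes. Of the symbols, 25119 (99.6%) matched RefSeq genes of GRCm38.p6. Named genes were Chaf1a and Chaf1b, the 20 largest rises and falls and the 12 largest gains and losses in FPKM among called genes of at least 300 bases with a named symbol (256 called genes were set aside), where rises and falls also needed a 6-library mean of 5 FPKM or more and no overlap between groups, the 10 largest of genes at most 0.5 FPKM in all EGFP and at least 2 FPKM in all p150DN libraries, up to 4 called members per list and direction, and 8 steady genes. The comparison, lists and rules were chosen with earlier results of these data known. The pipeline was tested on simulated data. Results for 1 gene list and 1 gene are not reported here.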

Additional observations from a re-analysis of the deposited data

How the results depend on the processing

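Counts of changed genes moved by more than 1.5 times under the settings named here. With a filter of 5 FPKM 1812 were higher and 692 at least 2-fold higher. Median-of-ratios scaling gave 1994 lower and 534 at least 2-fold lower. With factors over all genes above 0, an alternative added after the data were seen, 1753 were higher, 2239 lower, 815 at least 2-fold higher and 660 at least 2-fold lower. Quantile normalization gave 1779 higher, 1833 lower, 728 at least 2-fold higher and 505 at least 2-fold lower. Without p150DN replicates 2 and 3, also added later, 2483 genes changed, 1569 higher and 524 at least 2-fold lower, with the lone p150DN library assumed to vary like the EGFP libraries. Leaving out 1 library at a time gave 2538 to 4066 changed, 1875 to 2794 higher, 663 to 1290 lower, 1105 to 1387 at least 2-fold higher and 227 to 411 at least 2-fold lower. The median of all genes was 0.12 without a filter, 0.10 with the filter of 5 FPKM, 0.00275 and -0.0599 with the 2 median-of-ratios scalings, -0.0318 after quantile normalization, 0.14 without p150DN replicates 2 and 3 and 0.16 to 0.22 with 1 library left out. The replicate block gave 2878 higher and 1203 lower genes. Deviations of same-numbered libraries from their group means correlated weakly (r of 0.06, 0.10 and 0.03 across genes), against -0.12 to 0.078 for differently numbered libraries. With 3 libraries per group these values cannot decide whether the numbers pair the libraries. Of 407 named genes, signs changed only in genes that were not called in the report, and 1 of these, Rplp2, passed the test with the new sign after quantile normalization (limma adjusted p = 0.029). Under that setting 2 other uncalled named genes passed the test with their sign unchanged. With the 2 median-of-ratios scalings (tested genes, then all above 0) and quantile normalization in that order, Rpl41 was at -0.17, -0.24 and -0.22, Npm1 at -0.0701, -0.14 and -0.15, Rplp2 at -0.16, -0.24 and -0.26, and Rplp0 at -0.15, -0.23 and -0.0910. With the first 2 of these settings Eef2 was at -0.0743 and -0.15, Ybx1 at -0.13 and -0.20, and Chaf1b at -0.0616 and -0.13. With 1 library left out Rplp2 ranged from -0.00370 to 0.115, below 0 without EGFP replicate 2 or p150DN replicate 1, and Fbxo15 was at 0.0677 without p150DN replicate 2 and 0.14 without p150DN replicates 2 and 3. Of 59 gene lists 42 had more higher than lower members. In 16 of these that no longer held after median-of-ratios scaling, in 18 with it over all genes above 0, in 9 after quantile normalization and in 9 without p150DN replicates 2 and 3. Of 398 called named genes, 172 lost the call in at least 1 alternative. Causes were not tested. Depth limits genes under 300 bases and those near 1 FPKM.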
